A study of Mus musculus with 13 samples.

Results

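The NCoR-HDAC3 corepressor complex was followed through 5 of its core genes, Hdac3, Ncor1, Tbl1x, Tbl1xr1 and Gps2. They were taken from the non-control probes whose gene name, or a synonym of it, was one of those 5, which gave 13 probes of the 41174 non-control probes on the array and 5 genes of 27730. All 13 probes passed the filter on dim probes, which keeps a probe if some group had it well above background on each of its arrays. The samples were macrophages grown from the bone marrow of male C57BL/6 mice aged 12 to 16 weeks, in 30% L929 conditioned medium for 6 days. The groups were HDAC3 knockout (KO) cells in vehicle (3 arrays), control cells in vehicle (4 arrays), KO cells with IL-4 (3 arrays) and control cells with IL-4 (3 arrays). Both genotypes carried Hdac3 with loxP sites around exons 4 to 7, and KO cells also carried Cre recombinase under the lysozyme M promoter, so KO cells differ from control cells in Cre as well as in HDAC3. The vehicle was 0.1% bovine serum albumin, IL-4 was given at 10 ng/mL, and treatment lasted 24 hours. Nothing in the labels ties an array to its own animal or culture, and the p-values below therefore cover the spread among arrays, which may be technical.

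HDAC3 is a class I histone deacetylase that removes acetyl groups from histone tails and has little activity of its own until it binds the deacetylase activating domain of the corepressor NCoR (Ncor1). Unliganded nuclear receptors and other DNA-bound factors recruit NCoR, and the complex then keeps nearby genes repressed. Tbl1x and Tbl1xr1 encode the related WD40-repeat proteins TBL1 and TBLR1, which bind histones and help exchange corepressors for coactivators. GPS2 bridges TBL1 family proteins to the corepressor. In macrophages the complex is known for holding inflammatory genes in check.

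The probes below show which transcript stretches stand behind the Ncor1, Tbl1xr1 and Tbl1x values. Each sequence was read from the scanner files and is written 5′ to 3′. The 2 Tbl1xr1 probes carry the main result beside Hdac3 itself, and only the first 30 bases are given of A_52_P184160 and of the Tbl1x probe. A_51_P292057 spans 847 bases of chromosome 3 (chr3:22108518-22109364, plus strand), longer than the 60-base probe, so its placement holds a gap, whereas A_52_P184160 lies without a gap at chr3:22111074-22111133. The Tbl1x probe lies at chrX:74904627-74904686, plus strand. All positions use mm9, the build the files name.
Tbl1xr1 A_51_P292057: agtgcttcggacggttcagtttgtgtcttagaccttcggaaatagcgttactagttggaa
Tbl1xr1 A_52_P184160: ctgtgtttgtgaaggtggttgacaggatag
Tbl1x A_52_P260592: ggatactacagttgctttccaaaaagacca

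Ncor1 had 7 probes on chromosome 11, which did not all read the same strand. The gene lies on the minus strand, as do 4 of its probes, and the other 3 read the plus strand. A_52_P487598 (chr11:62233143-62233202, minus) and A_52_P561934 (chr11:62131484-62132878, minus) read the gene's own strand near the start and the end of the transcript, beginning at its bases 773 and 7388. A_51_P457744 (chr11:62141029-62141088, plus), A_52_P357298 (chr11:62138461-62138520, plus) and A_52_P43661 (chr11:62139770-62139829, plus) lie between them on the opposite strand. Of 20351 probes named by a RefSeq mRNA, 0.334% were placed on the strand opposite to their gene, and of 5840 others, 3.01%. The opposite-strand probes are therefore given apart from the Ncor1 mRNA.
Ncor1 A_52_P487598: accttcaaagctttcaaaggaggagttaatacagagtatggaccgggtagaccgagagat
Ncor1 A_52_P561934: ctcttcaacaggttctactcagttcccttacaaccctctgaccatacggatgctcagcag
Ncor1 A_51_P457744: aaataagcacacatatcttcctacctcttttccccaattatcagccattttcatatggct
Ncor1 A_52_P357298: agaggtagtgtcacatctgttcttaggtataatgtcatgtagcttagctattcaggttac
Ncor1 A_52_P43661: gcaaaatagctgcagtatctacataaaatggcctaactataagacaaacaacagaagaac

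On control vehicle array 4, 56.2% of spots stood well above background, the lowest share of the 13 arrays, followed by 61.1% on KO IL-4 array 15, and the highest was 83.2%. All 9 macrophage markers (among them Csf1r, Adgre1 and Cd68) were well above background on 13 of 13 arrays. So were 5 of 5 fibroblast and stroma, 4 of 5 erythroid, 3 of 5 B cell and 2 of 5 dendritic cell markers. The same held for 1 of 5 T cell markers and 1 of 5 markers of mast cells, basophils and eosinophils. Of 7 neutrophil and granulocyte precursor markers on the array, 3 were well above background on all arrays, while Elane, a defining one, was so on 0 arrays. The summed linear level of those markers was 5.05 to 7.29 on KO vehicle arrays and 3.93 to 5.99 on control vehicle arrays, and 5.14 to 6.68 on KO IL-4 arrays and 3.64 to 4.45 on control IL-4 arrays, in units of each array's 75th percentile. These differences lay mostly in Mmp8, a collagenase gene (mean log2 level 2.35 in KO vehicle and 1.81 in control vehicle). The sum of the other 6 markers, taken after the values were seen, was 0.920 to 1.03 on KO vehicle arrays and 0.907 to 1.06 on control vehicle arrays, and 0.817 to 1.11 on KO IL-4 arrays and 0.877 to 0.929 on control IL-4 arrays. In vehicle the mean log2 levels of Mpo (-2.29 in KO and -2.11 in control), Prtn3 (-4.10 and -3.95) and Elane (-5.94 and -5.73) were lower in KO cells. Those of Camp, Ngp, Ltf and Mmp8 were higher. Under IL-4 the means of Mpo, Prtn3, Elane, Camp and Mmp8 were higher in KO cells, and those of Ngp and Ltf lower. Prtn3 was well above background on 3 of 13 arrays and Elane on 0, so their differences lie near background. In the same units, the summed macrophage markers were 530 to 570 on KO IL-4 arrays and 480 to 509 on control IL-4 arrays. The erythroid sums were 1.42 to 1.71 and 1.75 to 2.11, in that order. In vehicle the macrophage and erythroid sums overlapped between genotypes. The part of all these markers in the genotype differences below was not tested. RNA of whole cultures was measured, so fewer cells of a type and less RNA per cell cannot be told apart.

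Levels below are log2 signal relative to each array's 75th percentile, so a level below 0 is dimmer than that percentile, and levels of different probes are not set against each other. Values after ± are SDs over 3 arrays, or 4 for control vehicle. For HDAC3 loss, 1 of 5 members was called higher and 1 lower in vehicle (limma, adjusted p under 0.05), where 2.47% of all 20544 genes tested were called higher and 2.3% lower, or 4.77% in all. Under IL-4, 1 of 5 was called higher and 1 lower, against 2.07% and 1.64% of all genes, or 3.71% in all. The member called lower was Hdac3 in both treatments, and the one called higher was Tbl1xr1. The groups did not overlap for 2 of 5 members in vehicle, against 17% of all genes, and for 3 of 5 under IL-4, against 17.9%. These were Hdac3 and Tbl1xr1 in both treatments, and Tbl1x under IL-4. Hdac3 is the gene that the KO targets, so its place in the called and non-overlapping counts says nothing about the other members.

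Hdac3, the deacetylase that the KO targets, was lower in KO cells. Its level was -3.67, -3.12 and -3.46 on the KO vehicle arrays, against -1.70, -2.14, -2.01 and -2.18 on the control vehicle arrays. With IL-4 it was -3.16, -3.35 and -4.02 on KO arrays, against -1.89, -2.28 and -1.80 on control arrays. Every KO array lay below every control array in both treatments. The log2 fold change was -1.41 (SE 0.218, limma adjusted p = 0.00290) in vehicle and -1.52 (SE 0.233, adjusted p = 0.00390) under IL-4, which left 37.7% and 34.9% of the control signal. The probe did not stand well above background on 1 of the 3 arrays of KO cells with IL-4. The single Hdac3 probe is placed at chr18:38096625-38096647, minus strand, from base 1642 of the transcript. These coordinates cover 23 bases, fewer than the 60 of the probe. Whether the probe falls within the floxed exons could not be established here, so the remaining signal does not measure how complete the deletion was.

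No IL-4 difference in Hdac3 passed the test. The log2 fold change of IL-4 over vehicle was -0.09 in KO cells (95% interval -0.61 to 0.42, adjusted p = 0.912) and 0.02 in control cells (-0.46 to 0.49, adjusted p = 0.988). In the order of group means, KO IL-4 (-3.51 ± 0.46) and KO vehicle (-3.41 ± 0.28) did not differ beyond their SD, nor did control vehicle (-2.01 ± 0.21) and control IL-4 (-1.99 ± 0.26). Within slides the genotype difference was -1.96, -0.98 and -1.45 in vehicle (slides 1 to 3) and -1.27 and -1.06 under IL-4 (slides 1 and 2). Its size depended on the processing: with normexp background correction, an offset of 50 and quantile normalization together it was -0.63 in vehicle (adjusted p = 0.00131) and -0.63 under IL-4 (adjusted p = 0.00288), whereas with quantile normalization alone it was -1.46 and -1.44. When only the IL-4 groups were fitted, the IL-4 call was lost (adjusted p = 0.0798).

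**Figure D1:**
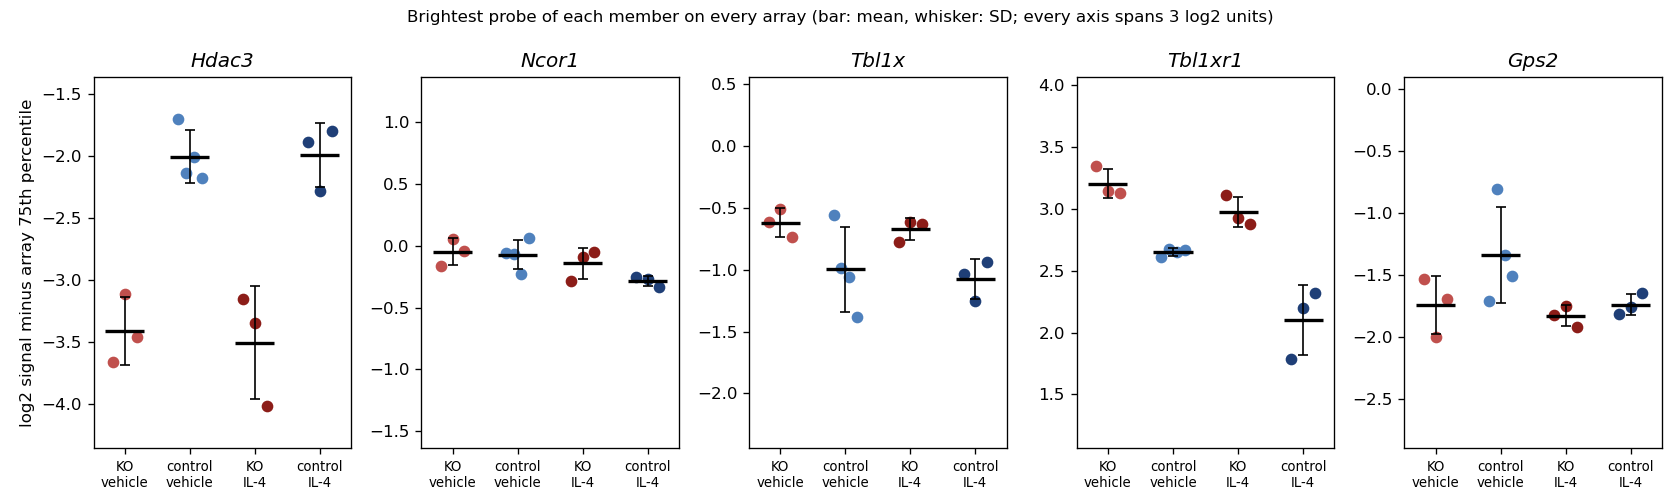
Log2 signal minus the array's 75th percentile (y axis) for the brightest probe of each of the 5 members, by group (x axis), with 1 point per array, the group mean as a bar and the SD as a whisker. Hdac3 is lower and Tbl1xr1 higher on every KO array than on every control array of the same treatment, while Ncor1 and Gps2 groups overlap between genotypes.

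Tbl1xr1, which encodes the WD40-repeat exchange factor TBLR1, was higher in KO cells on both of its probes. On A_52_P184160, the brighter one, the level was 3.34, 3.15 and 3.12 on KO vehicle arrays, against 2.61, 2.68, 2.65 and 2.67 on control vehicle arrays. With IL-4 it was 3.11, 2.93 and 2.88 on KO arrays, against 1.78, 2.20 and 2.32 on control arrays. The genotypes did not overlap in either treatment. The difference was 1.47-fold in vehicle (0.55 on the log2 scale, SE 0.126, adjusted p = 0.0278) and 1.83-fold under IL-4 (0.87, SE 0.134, adjusted p = 0.00404).

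The second Tbl1xr1 probe gave the same direction. On A_51_P292057 the level was -0.18, -0.15 and -0.09 on KO vehicle arrays, against -0.56, -0.84, -0.59 and -0.91 on control vehicle arrays. With IL-4 it was -0.11, -0.16 and -0.40 on KO arrays, against -1.07, -0.88 and -0.91 on control arrays. The log2 fold change was 0.58 (SE 0.117, adjusted p = 0.0150) in vehicle and 0.73 (SE 0.125, adjusted p = 0.00806) under IL-4, in a fit of 29054 probes, of which 4.16% and 3.21% were called. Averaged over both treatments, the A_52_P184160 difference was 0.71 (SE 0.0921, adjusted p = 0.000435), where 9.22% of genes were called, and it was called under each of the 26 alternatives run. The vehicle call was lost when any 1 of the 7 vehicle arrays was left out (adjusted p 0.0520 without KO array 7 to 0.153 without KO array 5).

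IL-4 lowered Tbl1xr1 in control cells on the brighter probe, by 0.55 on the log2 scale (SE 0.126, adjusted p = 0.0239). It was the 1 member of 5 called in that comparison, where 5.71% of all genes were called. The call was lost when any 1 of the 4 control vehicle arrays was left out (adjusted p 0.0514 to 0.0617, log2 fold change -0.56 to -0.54). It was also lost without control IL-4 array 9, at 1.78 the lowest of its group (-0.39, adjusted p = 0.0691). The other probe gave -0.23 (SE 0.117, adjusted p = 0.412), and its control IL-4 arrays overlapped with its control vehicle arrays. In KO cells the log2 fold change was -0.23 (95% interval -0.53 to 0.06, adjusted p = 0.539) on the brighter probe, although its KO IL-4 arrays lay below all KO vehicle arrays, and 0 of 5 members were called (limma, with 0 also at an unadjusted p under 0.05) where 2.22% of all genes were. The IL-4 effects in KO and control cells were not shown to differ (interaction 0.32, 95% interval -0.09 to 0.72, adjusted p = 0.999), in a test that called 0.00487% of genes. On the average of both genotypes IL-4 lowered the brighter probe by 0.39 (adjusted p = 0.0204), where 8.38% of genes were called. That call was lost without KO vehicle array 5 (adjusted p = 0.0614) and without KO IL-4 array 15 (adjusted p = 0.0516).

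The order of the Tbl1xr1 group means was KO vehicle (3.20 ± 0.12), KO IL-4 (2.97 ± 0.12), control vehicle (2.65 ± 0.03) and control IL-4 (2.10 ± 0.28). KO IL-4 arrays thus lay above the control vehicle arrays as well. Within slides the genotype difference of A_52_P184160 was 0.73, 0.47 and 0.47 in vehicle and 1.33 and 0.73 under IL-4. On A_51_P292057 the within-slide differences were 0.37, 0.69 and 0.50 in vehicle and 0.96 and 0.72 under IL-4. With slide as a fixed block the vehicle value was 0.60 (adjusted p = 0.0534) and the IL-4 value 0.94 (adjusted p = 0.0164). Each group kept 1 position on every slide, and the effects of position and of group cannot be told apart.

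**Figure D2:**
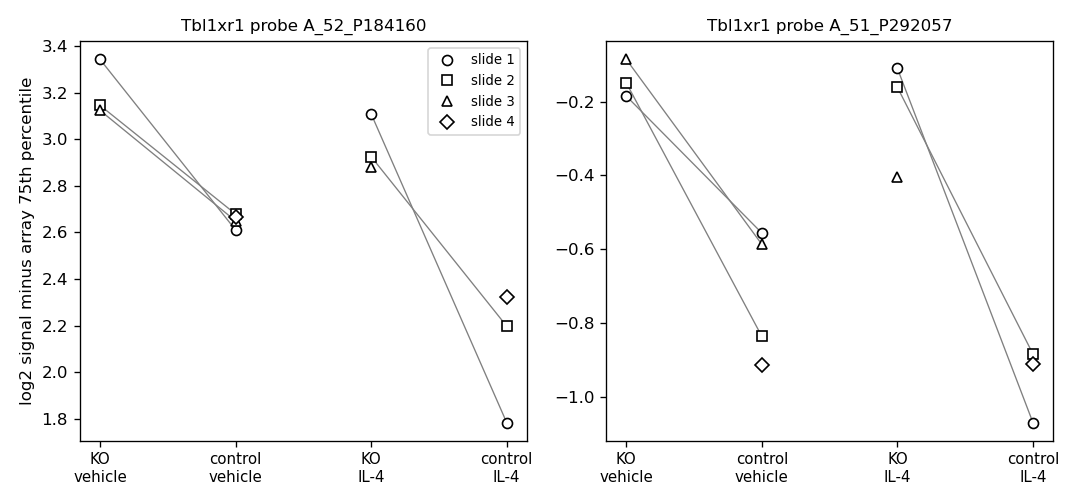
Log2 signal minus the array's 75th percentile (y axis) of both Tbl1xr1 probes in each group (x axis), with marker shape giving the slide and grey lines joining KO and control arrays of the same slide and treatment. All 10 lines run downwards to the control array, and the largest difference is 1.33, for slide 1 under IL-4 on A_52_P184160.

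Tbl1x, the X-linked relative of Tbl1xr1, had higher means in KO cells but did not pass the test. Its level was -0.62, -0.51 and -0.74 on KO vehicle arrays, against -0.56, -0.99, -1.06 and -1.38 on control vehicle arrays, so the groups overlapped through control array 1. With IL-4 it was -0.77, -0.62 and -0.63 on KO arrays, against -1.04, -1.25 and -0.94 on control arrays, with no overlap. The log2 fold change was 0.38 (SE 0.165, adjusted p = 0.329) in vehicle, 0.40 (SE 0.176, adjusted p = 0.311) under IL-4 and 0.39 (SE 0.121, adjusted p = 0.0721) on average. The average passed without control vehicle array 1 (0.46, adjusted p = 0.0118), with normexp correction (0.31, adjusted p = 0.0247) and when only probes well above background on all arrays were tested (adjusted p = 0.0462). IL-4 moved it by -0.05 in KO cells and -0.08 in control cells, with intervals of -0.44 to 0.33 and -0.44 to 0.28. Whether Tbl1x and Tbl1xr1 differ in their response to HDAC3 loss was not tested.

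Ncor1, the scaffold that binds and activates HDAC3, passed in no comparison on any of its 7 probes, and 3 of their comparisons had an unadjusted p under 0.05 (2 of A_52_P561934 and 1 of A_52_P244895). On A_52_P487598 the level was -0.16, 0.05 and -0.04 on KO vehicle arrays, against -0.06, -0.06, -0.23 and 0.06 on control vehicle arrays. With IL-4 it was -0.29, -0.09 and -0.05 on KO arrays, against -0.26, -0.27 and -0.33 on control arrays. The genotypes overlapped in both treatments, while the control IL-4 arrays lay below all control vehicle arrays. The genotype difference was 0.02 in vehicle (95% interval -0.19 to 0.24, adjusted p = 0.995) and 0.14 under IL-4 (-0.09 to 0.37, adjusted p = 0.603). IL-4 gave -0.21 in control cells (-0.43 to 0.00, adjusted p = 0.349) and -0.09 in KO cells (-0.32 to 0.14, adjusted p = 0.776). With Tbl1xr1, Ncor1 made 2 of 5 members whose groups did not overlap for IL-4 in control cells, against 16.8% of all genes, and in KO cells Tbl1xr1 was the 1 of 5, against 18.3%.

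The other end of the Ncor1 transcript gave small differences as well. On A_52_P561934 the level was -0.22, -0.33 and -0.22 on KO vehicle arrays, against -0.09, -0.09, -0.05 and 0.07 on control vehicle arrays. The groups did not overlap, at a log2 fold change of -0.21 (SE 0.100, adjusted p = 0.396). Under IL-4 the same probe gave 0.15 (adjusted p = 0.598), the opposite sign, on arrays that overlapped. IL-4 in control cells gave -0.29 (unadjusted p = 0.0136, adjusted p = 0.153), and the interaction 0.36 (unadjusted p = 0.0297, adjusted p = 0.9997). The 3 opposite-strand probes were dim: A_51_P457744 was well above background on 12 of 13 arrays, and A_52_P357298 and A_52_P43661 on 10 of 13 each. Their genotype differences had wide intervals, at 0.41 for A_52_P43661 in vehicle (-0.49 to 1.31) and 0.51 for A_51_P457744 in vehicle (-0.48 to 1.50).

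**Figure D3:**
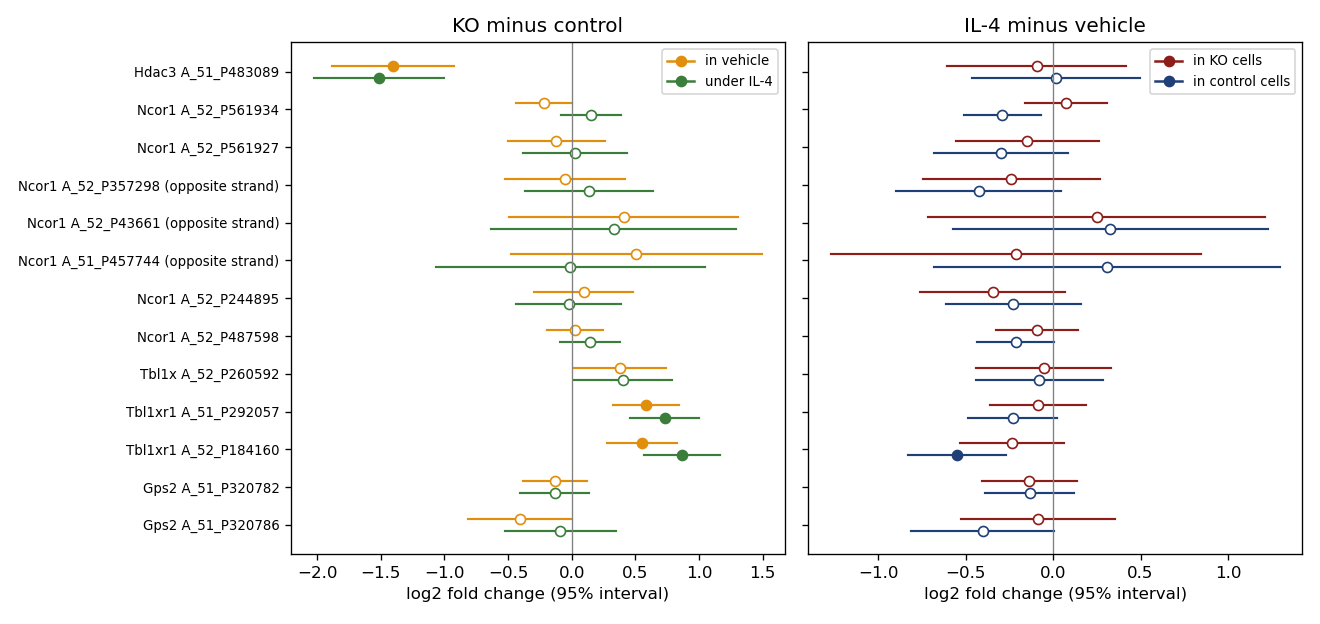
Log2 fold change with its 95% interval (x axes) for each of the 13 member probes (rows), for KO minus control in vehicle and under IL-4 (left panel) and for IL-4 minus vehicle in KO and control cells (right panel), with filled points at an adjusted p under 0.05. The Hdac3 probe and both Tbl1xr1 probes are filled on the left, and A_52_P184160 of Tbl1xr1 in control cells is the filled point on the right.

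Gps2, which encodes the subunit that bridges TBL1 proteins to NCoR, was not called in any comparison, nor did either probe have an unadjusted p under 0.05. On A_51_P320786 the level was -1.54, -2.00 and -1.70 on KO vehicle arrays, against -1.71, -0.80, -1.34 and -1.51 on control vehicle arrays. With IL-4 it was -1.82, -1.75 and -1.92 on KO arrays, against -1.81, -1.76 and -1.65 on control arrays. The groups overlapped in both treatments, and control vehicle array 2 was the highest array. The genotype difference was -0.41 in vehicle (95% interval -0.81 to 0.00, adjusted p = 0.372) and -0.09 under IL-4 (-0.53 to 0.35, adjusted p = 0.888). The second Gps2 probe, A_51_P320782, gave -0.13 in vehicle (adjusted p = 0.812) and -0.13 under IL-4 (adjusted p = 0.701).

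Among 8 other partners of the complex, 1 was called lower and 0 higher in KO cells in each treatment. Over all genes, 2.3% were called lower in vehicle and 1.64% under IL-4, or 4.77% and 3.71% in either direction. The list median log2 fold change was 0.07 in vehicle and 0.02 under IL-4, against 0.02 and -0.02 over all genes. The gene called was Coro2a, an actin-binding coronin found with NCoR in macrophages. Its level was 0.57 ± 0.15 in KO vehicle and 1.09 ± 0.10 in control vehicle, and 0.24 ± 0.11 in KO IL-4 and 0.95 ± 0.17 in control IL-4. The log2 fold change was -0.52 (SE 0.112, adjusted p = 0.0209, ended by 6 of 26 alternatives) in vehicle. Under IL-4 it was -0.71 (SE 0.120, adjusted p = 0.00674, ended by 2 of 26 alternatives). Hdac9, a class IIa deacetylase, fell with IL-4 on the average of both genotypes (-0.68, adjusted p = 0.0323), a call that 10 of 25 alternatives ended. It was the 1 of 8 partners called there, against 8.38% of all genes.

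Of 21 tested transcription factor genes known to recruit the corepressor, 2 were called higher and 1 lower in KO vehicle cells, and 2 higher and 0 lower in KO IL-4 cells. Over all genes, 2.47% were called higher and 2.3% lower in vehicle, and 2.07% and 1.64% under IL-4. On the average of both treatments 3 of the 21 were called higher and 2 lower, where 9.22% of all genes were called in either direction. Rbpj, the DNA-binding factor of Notch signalling, was at 2.92 ± 0.06 in KO vehicle against 2.24 ± 0.13 in control vehicle (log2 fold change 0.67, adjusted p = 0.00111). Under IL-4 Rbpj was higher by 0.56 in KO than in control cells (adjusted p = 0.00711, ended by 2 of 26 alternatives). Rxra, the shared partner of many nuclear receptors, was higher by 0.55 in vehicle (adjusted p = 0.0363) and 0.67 under IL-4 (adjusted p = 0.0232), with the vehicle call ended by 13 and the IL-4 call by 8 of 26 alternatives. Pparg, a fatty acid-sensing receptor, was at 1.99 ± 0.01 in KO vehicle and 2.66 ± 0.10 in control vehicle (-0.67, adjusted p = 0.0183, a call that 8 of 26 alternatives ended). IL-4 raised Pparg in KO cells by 1.27 (adjusted p = 0.000962, ended by 1 of 26 alternatives) and in control cells by 1.05 (adjusted p = 0.000847). Pparg was the 1 of 21 called in each, against 2.22% and 5.71% of all genes. The list median was 0.02 in vehicle and 0.16 under IL-4, against 0.02 and -0.02 over all genes.

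Other corepressor and coactivator genes held 2 of the largest KO differences of these lists. Their counts are read beside the 2.47% of all genes called higher and 2.3% called lower in vehicle. Under IL-4 these shares were 2.07% and 1.64%. Of 13 tested corepressors outside the complex, 1 was called higher and 0 lower in each treatment. It was Tle3, a Groucho family corepressor, at 1.97 ± 0.12 in KO vehicle and 0.79 ± 0.24 in control vehicle (1.18, adjusted p = 0.000646). Under IL-4 Tle3 was higher by 1.01 (adjusted p = 0.00366, ended by 1 of 26 alternatives). Of 16 nuclear receptor coactivators, 1 was called higher and 0 lower in each treatment: Ncoa4, which is also the receptor that delivers ferritin for degradation, at 5.09 ± 0.04 in KO vehicle and 4.03 ± 0.17 in control vehicle (1.05, adjusted p = 0.000300) and higher by 1.07 under IL-4 (adjusted p = 0.000557). Of 9 tested inositol phosphate kinases, whose products bind between HDAC3 and the corepressor, 1 was called higher and 0 lower in each treatment. It was Ipmk, higher by 0.47 in vehicle (adjusted p = 0.0263) and 0.71 under IL-4 (adjusted p = 0.00468). The vehicle call was ended by 10 and the IL-4 call by 2 of 26 alternatives. In vehicle the list median was 0.04 for the corepressors, -0.09 for the coactivators and 0.03 for the kinases, against 0.02 over all genes.

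In the other deacetylase complexes the shares called are read beside the 4.77% of all genes called in vehicle and the 3.71% under IL-4. On the average of both treatments 9.22% of all genes were called. For IL-4 the shares were 8.38% on the average of both genotypes, 2.22% in KO cells and 5.71% in control cells. Of 15 SIN3 complex genes, 0 were called higher and 1 lower in KO vehicle cells, Brms1l (-0.42, adjusted p = 0.0331, ended by 12 of 26 alternatives), and 0 were called under IL-4 (limma), with 3 at an unadjusted p under 0.05. Of 10 tested NuRD complex genes, limma called 0 in either treatment, with 2 at an unadjusted p under 0.05 in each. Chd4, the nucleosome remodeller of that complex, was higher on the average of both treatments (0.31, adjusted p = 0.0144, ended by 2 of 25 alternatives). Limma called 0 of 10 CoREST complex genes for genotype in vehicle, under IL-4 or on average, with 1, 4 and 3 at an unadjusted p under 0.05. It also called 0 of 8 TRiC chaperonin genes, whose products fold HDAC3, and 0 of 10 genes of corepressor turnover, each with 1, 0 and 1 at an unadjusted p under 0.05. On the average of both treatments, Tle2 (0.36, adjusted p = 0.0403, ended by 14 of 25 alternatives) was higher. The kinase gene Ip6k2 was lower (-0.53, adjusted p = 0.0152, ended by 2 of 25 alternatives, among them the mean over probes). IL-4 on the average of both genotypes lowered Chd3 (-0.33), Zmym3 (-0.37), Ep300 (-0.33) and Trim24 (-0.40), with adjusted p-values of 0.0106, 0.00552, 0.0150 and 0.0136. These calls were ended by 1, 1, 3 and 2 of 25 alternatives, in that order. In single genotypes IL-4 lowered Chd3 (-0.48, adjusted p = 0.0304) and Zmym3 (-0.50, adjusted p = 0.0245) in KO cells and Ncoa7 (-0.33, adjusted p = 0.0423) in control cells. These 3 calls were ended by 13, 11 and 17 of 26 alternatives, in that order.

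**Figure D4:**
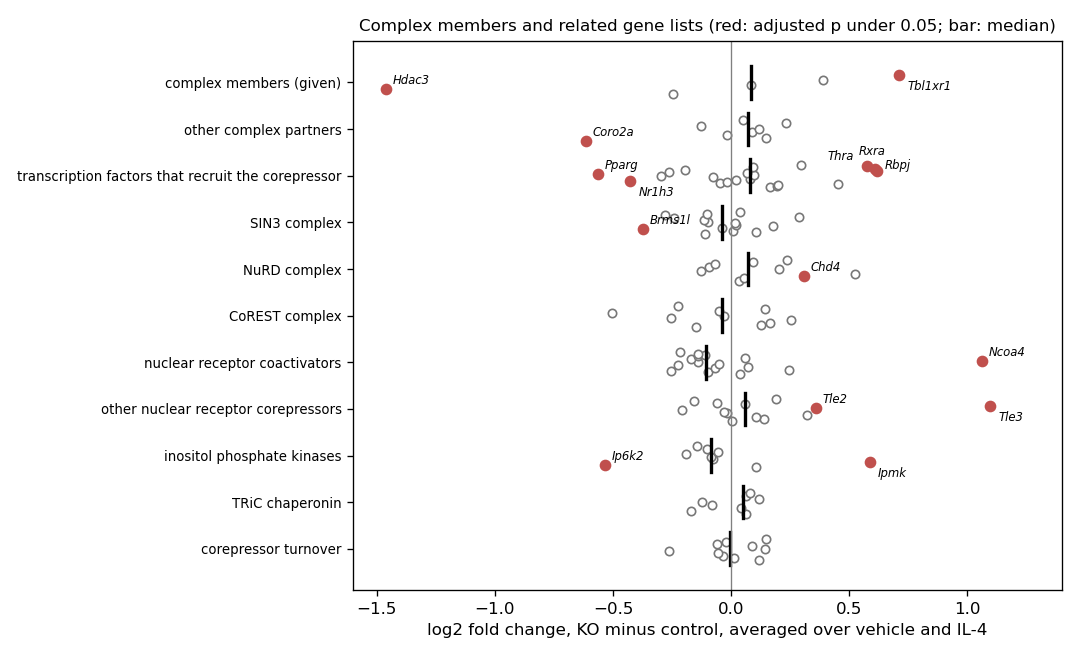
Log2 fold change of KO minus control averaged over vehicle and IL-4 (x axis) for every tested gene of the complex and of the related lists (rows), with red points at an adjusted p under 0.05 and black bars at list medians. Hdac3 lies lowest, at -1.46, while Tle3, Ncoa4 and Tbl1xr1 lie highest and most genes sit near 0.

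The genes whose levels ran most like each member over the 13 arrays are given as a description, since all genes share the same arrays and the same 4 groups. For Hdac3, the highest Pearson r values were 0.964 for Prpf38a, 0.953 for Car13, 0.953 for Casp1, 0.949 for Daxx and 0.948 for H2-T22. For Tbl1xr1 they were 0.969 for Ermp1, 0.965 for Ptpn12 and 0.965 for Fbxl5, and for Tbl1x 0.918 for Mmp8, the collagenase gene of the neutrophil marker list, 0.905 for Enkur and 0.890 for Ext1. For Ncor1 they were lower, at 0.845 for Ints6l, 0.822 for Zfx and 0.817 for Pkd2, and for Gps2 0.859 for Slc17a6, 0.851 for Popdc3 and 0.834 for Ppme1.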

How the data were processed

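RNA of 13 macrophage samples was amplified and labelled with Cy3, per the labels' protocols, and hybridised to one-colour Agilent arrays. The scanner files the authors deposited give an intensity for every spot, extracted per the file headers with Agilent Feature Extraction 10.5.1.1, whereas the submitters' processing notes name version 9.53 and limma. The deposited value table holds intensity values of 39280 rows on a linear scale with no stated normalization. All its columns had a 75th percentile of 772 and a median of 181 to 181.5, as columns normalized to each other would. They correlated with the scanner values at 0.998 or more, and the table served as an alternative.

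Control and outlier spots were left out, and spots of a probe were averaged (101 probes lost every spot on some array). From log2 gProcessedSignal the 75th percentile of the array was subtracted. A probe was kept if all arrays of some group had it well above background (29054 probes), and the brightest probe stood for its gene (20544 genes). Groups were compared by lmFit and eBayes (limma 3.58.1, R 4.3.3) in 1 two-sided fit of all 13 arrays, with Benjamini-Hochberg adjustment over all genes, or over all probes for single probes. The methods were tested on simulated data. A log2 change of 0.5 planted in KO arrays was called in 16% of 50 genes in vehicle and 6% under IL-4. For -0.5 these shares were 20% and 22%, and for 1 they were 68% and 62%. A difference of about 0.5 that was not called is therefore not shown to be absent. The number of arrays and signal over background limit the precision.

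Sequences and coordinates come from the scanner files (mm9), and gene strands from a RefSeq table of another build, used for strand only. Named genes are every member, up to 3 called genes per list and comparison by smallest adjusted p, and the genes most like each member. The members and lists were chosen with earlier results of these data known. No sequence is shown for Hdac3. The values of 1 gene of the partner list are not reported here. Alternatives covered scaling, background correction, the authors' values, probe filters and probe choice, the variance model, slide blocks, array weights, the samples fitted and each array left out.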

Additional observations from a re-analysis of the deposited data

Results flagged for a closer look

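In the control vehicle group, the only group with 4 arrays, 1 of 30 member probes and other named genes had an array far from the rest. Ncor1 probe A_52_P43661, on the strand opposite to the gene, stood at -5.23 on array 4, while the nearest array was at -3.90 and the highest at -3.63. Such a gap arises by chance in about 1 of 20 groups. Array 4 had 56.2% of its spots well above background, the lowest of the 13 arrays, and what that did to the value was not tested. The 5 interaction tests of the members flagged none.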

How the results depend on the processing

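Over 35 member results and their alternatives (944 values), 30 lost a call, 29 of them of Tbl1xr1, 3 gained one and no called value turned its sign; 60 values that were never called turned theirs. Tbl1xr1 lost its vehicle KO call under median scaling (0.53), without a filter on dim probes (0.55), with a fixed slide block (0.60) and without the 2 arrays of lowest share above background (0.56), and ranged over 0.48 to 0.59 with 1 array left out. Its IL-4 call in control cells was lost under median scaling (-0.51), the mean over probes (-0.39), the fixed block (-0.58), without those 2 arrays (-0.54), with only the compared groups (-0.55) and on the other probe (-0.23), ranging over -0.66 to -0.39 with 1 array left out (lost without any control vehicle array or control IL-4 array 9). The IL-4 average was lost under median scaling (-0.33), the mean over probes (-0.28), without those 2 arrays (-0.37) and on the other probe (-0.16), ranging over -0.45 to -0.31 (lost without KO vehicle array 5 or KO IL-4 array 15). With only the compared groups the KO effects under IL-4 were lost for Tbl1xr1 (0.87) and Hdac3 (-1.52). Tbl1x gained its genotype average with normexp (0.31) and the stricter filter (0.39), ranging over 0.33 to 0.46. Hdac3 could not be tested under that stricter filter, as its probe was not well above background on 1 array. Of 36 results of other named genes, 14 kept their call under every alternative run, 22 lost it under at least 1, and 0 turned their sign.

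Counts of called genes moved by over 1.5 times as follows. For KO in vehicle the 980 calls became 521 (median scaling), 1805 (array weights) and 619 (without the 2 arrays), and 462 to 1108 with 1 array left out, lowest without KO arrays 5 (464) and 6 (462) and control array 3 (652). For KO under IL-4 the 763 became 424, 1418 and 485 under the same settings and 104 with only the compared groups, and 454 to 722 with 1 array left out (control arrays 10 and 12). For IL-4 in KO cells the 456 became 811 (normexp), 284 (median scaling), 771 (trend and robust variance), 268 (without the 2 arrays) and 121 (compared groups only), and 256 to 492 with 1 array left out (KO vehicle arrays 5 to 7). For IL-4 in control cells the 1173 became 701 (median scaling) and 2646 (array weights), and 769 to 1383 with 1 array left out. The genotype average of 1894 became 1148 (median scaling) and 2985 (array weights), the IL-4 average of 1721 became 1088 (median scaling), and the single interaction call became 2 (quantile normalization, the authors' values and the stricter filter), 8 (normexp), 10 (trend and robust variance) and 4 (array weights), and 1 to 4 with 1 array left out. Median scaling also changed the share of higher calls to 43.6% for KO in vehicle and 63.0% for IL-4 in KO cells, and to 71.9% there with only the compared groups. No array number is shared between groups, so no fit by replicate number was made, and the slides that groups share were fitted as blocks instead.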
